A study of Mus musculus with 8 samples.

Results

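H2A.Z peaks that lay inside genes, away from the gene ends, were compared between testes of Znhit1-CKO mice and testes of Control mice at postnatal day 14. ChIP-seq, the sequencing of DNA bound to immunoprecipitated H2A.Z, was carried out on dissociated testis cells, with 2 immunoprecipitates and 2 inputs per genotype, 8 libraries in all. The labels give the genotypes as Znhit1-CKO (Znhit1-sKO in the protocol) and Control, and the sources used here do not give the Cre line, the strain or the alleles of the controls. Testis cells hold germ cells and somatic cells together, so fewer cells of a type and less H2A.Z per cell cannot be told apart. A gene-body peak was a peak that overlapped a protein-coding gene and lay more than 1000 bp from both ends of every protein-coding gene, lncRNA gene and pseudogene. By this rule 6761 of 31156 Znhit1-CKO peaks (21.7%, 95% interval 21.2 to 22.2%) and 11177 of 48752 Control peaks (22.9%, 22.6 to 23.3%) were gene-body peaks. Each genotype had a single peak list of positions, with no read counts, so depth is unknown, no value carries an error over animals, and the exact (Clopper-Pearson) 95% intervals cover counting error only.

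H2A.Z is a variant of histone H2A that is exchanged into nucleosomes by the SRCAP and TIP60/p400 complexes, and ZNHIT1 is a subunit of SRCAP. It is best known from the nucleosomes beside transcription start sites, mostly at CpG-rich promoters, and from enhancers. Inside a gene it can therefore mark a further start of the same gene, an enhancer or another element, and elsewhere in gene bodies H2A.Z and DNA methylation tend to exclude each other.

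The gene-body peaks separated by whether they covered an annotated start inside the gene. Starts came from a RefSeq table (GRCm38.p6, the coordinates of mm10) of 300-bp windows that reach from 250 bp before to 50 bp after each start, and a start was internal when it lay more than 1000 bp from every gene end counted by the rule. Because a gene spans its outermost transcripts, an internal start can be the main promoter of its gene. The windows printed here are those of the widest Control gene-body peaks over an internal start that a Znhit1-CKO peak overlapped (Bcl6, Hivep2, Ptch1) and those of the widest that none overlapped (S100a3, Trak1, Galnt14). The others are those of 3 genes known for a promoter inside the gene (Dnmt1, Dnmt3a, Runx1). CpG dinucleotides are in capitals, the sequences run 5′ to 3′ on the strand of the gene, and they show the range of CpG content behind the results.
Bcl6 window (chr16:23981234-23981533, minus strand): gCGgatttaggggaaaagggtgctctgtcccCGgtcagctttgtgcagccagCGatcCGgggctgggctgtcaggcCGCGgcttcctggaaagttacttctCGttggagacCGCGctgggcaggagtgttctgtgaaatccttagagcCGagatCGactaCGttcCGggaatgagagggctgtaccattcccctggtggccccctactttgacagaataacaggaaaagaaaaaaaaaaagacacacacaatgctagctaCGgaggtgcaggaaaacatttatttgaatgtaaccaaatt
Hivep2 window (chr10:13966129-13966428, plus strand): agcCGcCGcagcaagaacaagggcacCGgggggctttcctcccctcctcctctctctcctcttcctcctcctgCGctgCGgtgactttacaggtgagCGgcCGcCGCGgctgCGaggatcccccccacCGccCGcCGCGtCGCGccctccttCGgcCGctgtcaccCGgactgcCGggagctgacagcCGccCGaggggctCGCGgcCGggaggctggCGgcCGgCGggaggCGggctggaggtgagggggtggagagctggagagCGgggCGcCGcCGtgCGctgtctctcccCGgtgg
Ptch1 window (chr13:63565686-63565985, minus strand): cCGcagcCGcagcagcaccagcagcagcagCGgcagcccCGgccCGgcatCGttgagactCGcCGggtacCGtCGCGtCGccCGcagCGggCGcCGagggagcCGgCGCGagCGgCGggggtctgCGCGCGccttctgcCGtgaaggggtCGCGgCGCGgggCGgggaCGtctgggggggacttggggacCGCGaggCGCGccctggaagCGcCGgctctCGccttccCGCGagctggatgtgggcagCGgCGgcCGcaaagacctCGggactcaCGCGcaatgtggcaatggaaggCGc
S100a3 window (chr3:90586702-90587001, plus strand): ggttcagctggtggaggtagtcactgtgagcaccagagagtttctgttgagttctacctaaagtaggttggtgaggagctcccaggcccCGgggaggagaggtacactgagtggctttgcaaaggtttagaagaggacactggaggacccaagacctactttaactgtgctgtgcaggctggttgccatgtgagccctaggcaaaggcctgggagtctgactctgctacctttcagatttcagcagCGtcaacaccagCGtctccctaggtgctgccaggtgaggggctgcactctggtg
Trak1 window (chr9:121382544-121382843, plus strand): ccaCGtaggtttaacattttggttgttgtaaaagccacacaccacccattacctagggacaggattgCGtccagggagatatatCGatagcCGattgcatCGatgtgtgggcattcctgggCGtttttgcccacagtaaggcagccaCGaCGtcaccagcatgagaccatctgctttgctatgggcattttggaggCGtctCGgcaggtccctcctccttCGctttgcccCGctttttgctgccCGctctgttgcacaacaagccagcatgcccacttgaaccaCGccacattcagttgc
Galnt14 window (chr17:73710402-73710701, minus strand): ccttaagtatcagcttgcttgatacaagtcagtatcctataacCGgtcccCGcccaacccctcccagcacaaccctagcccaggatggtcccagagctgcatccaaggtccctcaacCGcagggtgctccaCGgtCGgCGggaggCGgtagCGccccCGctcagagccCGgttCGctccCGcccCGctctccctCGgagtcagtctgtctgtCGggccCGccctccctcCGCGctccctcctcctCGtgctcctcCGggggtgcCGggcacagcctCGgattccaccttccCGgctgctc
Dnmt1 window (chr9:20952574-20952873, minus strand): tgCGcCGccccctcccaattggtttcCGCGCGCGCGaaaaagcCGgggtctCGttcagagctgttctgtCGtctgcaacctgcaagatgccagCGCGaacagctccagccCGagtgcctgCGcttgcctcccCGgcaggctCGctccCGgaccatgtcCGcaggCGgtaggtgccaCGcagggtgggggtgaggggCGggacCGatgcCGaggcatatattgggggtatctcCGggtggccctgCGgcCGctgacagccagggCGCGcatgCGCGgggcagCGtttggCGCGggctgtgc
Dnmt3a window (chr12:3806910-3807209, plus strand): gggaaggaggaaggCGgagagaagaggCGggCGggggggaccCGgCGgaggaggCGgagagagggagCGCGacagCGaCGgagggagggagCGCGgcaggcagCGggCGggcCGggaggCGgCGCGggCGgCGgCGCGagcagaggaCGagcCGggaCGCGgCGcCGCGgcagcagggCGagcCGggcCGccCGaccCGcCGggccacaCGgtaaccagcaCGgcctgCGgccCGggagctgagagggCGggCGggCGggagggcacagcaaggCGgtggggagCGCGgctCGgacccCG
Runx1 window (chr16:92697280-92697579, minus strand): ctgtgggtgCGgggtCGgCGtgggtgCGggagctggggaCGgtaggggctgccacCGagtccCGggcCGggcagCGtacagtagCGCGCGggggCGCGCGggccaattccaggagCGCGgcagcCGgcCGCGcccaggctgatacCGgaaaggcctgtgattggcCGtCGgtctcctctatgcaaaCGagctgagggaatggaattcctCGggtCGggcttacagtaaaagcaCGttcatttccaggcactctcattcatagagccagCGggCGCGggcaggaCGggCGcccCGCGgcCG

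The windows of Ptch1 and Dnmt3a, each with 47 CpG dinucleotides, and those of Hivep2 and Runx1, each with 35, lay under peaks of both genotypes. Dnmt1, with 33, did so too. Among the windows covered in Control testes alone, that of S100a3 held 3 CpG dinucleotides, that of Trak1 14 and that of Galnt14 23. The Bcl6 window, under a Control peak that Znhit1-CKO peaks overlapped, also held 14. A single window therefore did not tell overlapped Control peaks from the others by its CpG count. The widest Znhit1-CKO peak on the Bcl6 Control peak, at chr16:23982414-23984142, did not reach the window.

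Fewer and narrower peaks were called inside genes in Znhit1-CKO testes. The number of gene-body peaks in Znhit1-CKO testes was 60.5% of that in Control testes, and their summed length was 4.25 Mb against 8.20 Mb, or 51.8%. At the ends of coding genes the number was 89.7% and the length 73.2%, and outside genes the number was 48.3% and the length 40.5%. The median width of a gene-body peak was 505 bp in Znhit1-CKO testes and 623 bp in Control testes. Peaks of at least 1000 bp made up 15.9% of the Znhit1-CKO gene-body peaks and 21.6% of the Control ones. Per Mb of gene interior, 6.97 peaks were called in Znhit1-CKO testes and 11.5 in Control testes.

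Of the Control gene-body peaks, 4270 of 11177 (38.2%, 37.3 to 39.1%) were overlapped by at least 1 bp of a Znhit1-CKO peak, against 49.3% of all Control peaks. The share was 82.0% at coding gene ends (81.4 to 82.6%) and 31.1% outside genes (30.4 to 31.8%). Of the Znhit1-CKO gene-body peaks, 2071 of 6761 (30.6%, 29.5 to 31.7%) had no Control peak, against 17.9% of all Znhit1-CKO peaks. It was 51.2% where an overlap of 50% of both peaks was required. By the 1 bp rule the other 4690 (69.4%) overlapped a Control peak, against 82.1% of all Znhit1-CKO peaks. A differential region, one of 24367 regions that the authors listed without a direction, lay on 25.4% of the Znhit1-CKO gene-body peaks (24.4 to 26.5%), against 37.0% of all Znhit1-CKO peaks. It lay on 45.8% of the Control gene-body peaks (44.8 to 46.7%), against 48.9% of all Control peaks, and on 22.8% where it had to cover at least 50% of the Control peak. In total 5351 of the differential regions (22.0%) lay on a gene-body peak. Of these, 256 lay on Znhit1-CKO gene-body peaks alone, 3647 on Control gene-body peaks alone and 1448 on both.

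Control gene-body peaks over an internal start were mostly overlapped by a Znhit1-CKO peak, and those over no listed start mostly were not. Of 8750 Control gene-body peaks in hosts with listed starts, 1076 covered an internal start, and 85.2% of these (83.0 to 87.3%) were overlapped by a Znhit1-CKO peak. Of the 7674 that covered none, 32.2% were (31.2 to 33.3%), a share close to the 31.1% of Control peaks outside genes. In the Znhit1-CKO list, 97.9% of 911 peaks over an internal start had a Control peak (96.8 to 98.7%), and 63.2% of 4466 peaks over none did (61.8 to 64.6%). The intervals of each pair did not overlap, and this split was made after the values were seen. Peaks over a start were wider, with a median of 1089 bp in Znhit1-CKO testes and 1243 bp in Control testes, against 453 bp and 574 bp for peaks over none.

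**Figure D1:**
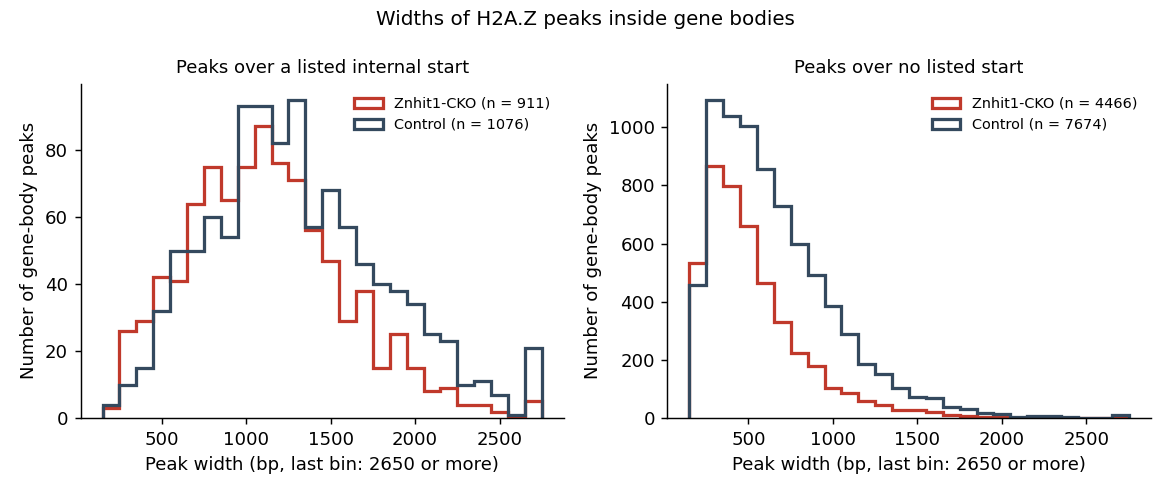
Number of gene-body peaks by width in bp for peaks over a listed internal start (left) and over none (right), in Znhit1-CKO and Control testes, for hosts with listed starts. In both panels the Znhit1-CKO distribution lies at narrower widths, with medians of 1089 and 1243 bp over a start and 453 and 574 bp over none.

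Width was therefore held fixed. Among Control gene-body peaks of 400 to under 700 bp, 48.7% over a start (39.2 to 58.3%) and 27.2% over none (25.5 to 28.9%) were overlapped. Among those of 700 to under 1000 bp, 74.7% over a start (67.8 to 80.8%) and 38.7% over none (36.3 to 41.1%) were overlapped. Among those of 1000 to under 1500 bp the shares were 91.5% (88.4 to 94.0%) over a start and 57.6% (54.4 to 60.8%) over none, and among those of 1500 bp or more 99.4% (97.9 to 99.9%) and 70.4% (64.2 to 76.1%). Below 400 bp, where 22 peaks covered a start, the shares were 22.7% (7.82 to 45.4%) and 18.2% (16.5 to 19.9%) and their intervals overlapped. At 1500 bp or more the peaks over a start were close to the 98.6% of gene-end peaks (98.3 to 98.9%). The peaks over none were, by contrast, close to the peaks of the same width outside genes in the groups from 700 to under 1500 bp, at 42.5% (40.9 to 44.2%) and 58.3% (56.2 to 60.4%). At 1500 bp or more the peaks outside genes stood at 79.7% (75.9 to 83.3%). In hosts that had a Control peak at a gene end, the shares over all widths were 83.3% over a start (80.1 to 86.2%) and 32.1% over none (31.0 to 33.3%).

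**Figure D2:**
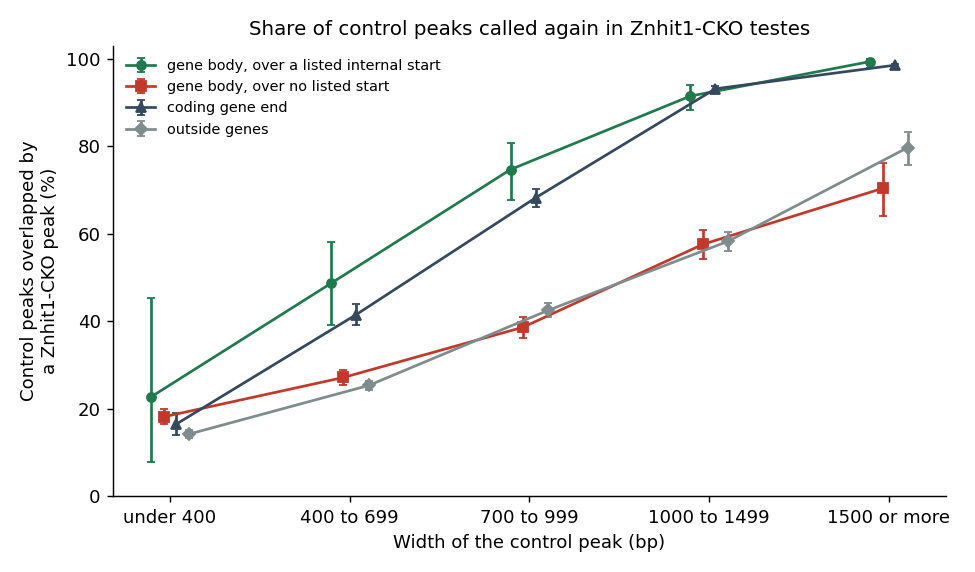
Percent of Control peaks overlapped by a Znhit1-CKO peak, by width of the Control peak in bp, for gene-body peaks over a listed internal start, gene-body peaks over none, peaks at coding gene ends and peaks outside genes; bars are exact 95% intervals. From 400 bp upward the peaks over an internal start lie near those at gene ends, and the peaks over none lie near those outside genes, except at 1500 bp or more, where they stand at 70.4% against 79.7%.

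Over all widths, differential regions lay on 56.6% of Control gene-body peaks over a start (53.6 to 59.6%) and on 44.5% of those over none (43.4 to 45.6%). From 400 to under 1000 bp the order was the reverse. Among peaks of 400 to under 700 bp the shares were 30.1% (21.8 to 39.4%) over a start and 45.7% (43.8 to 47.6%) over none, and among those of 700 to under 1000 bp 45.7% (38.4 to 53.2%) and 63.1% (60.7 to 65.4%). In the other width groups the intervals overlapped, at 18.2% (5.19 to 40.3%) over a start and 16% (14.4 to 17.6%) over none under 400 bp, 60.5% (55.6 to 65.3%) and 66.3% (63.2 to 69.3%) from 1000 to under 1500 bp, and 69.0% (63.8 to 73.9%) and 67.1% (60.7 to 73.0%) at 1500 bp or more.

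The internal starts were also read from the side of the annotation. Of 3574 internal starts in 2731 genes, 1070 (29.9%) lay under a Control gene-body peak that a Znhit1-CKO peak overlapped, 19 under a Znhit1-CKO gene-body peak alone, 177 (4.95%) under a Control gene-body peak that none overlapped and 1856 (51.9%) under none. A further 440 lay under a peak that reached a gene end, and 12 under a Znhit1-CKO gene-body peak whose Control partner missed the start. At 108 of the 1070 starts (10.1%, 8.35 to 12.1%) the start itself lay outside the Znhit1-CKO gene-body peaks. The median CpG count of the 300-bp window was 19 at the 1070 starts, called shared starts below, 5 at those covered in Znhit1-CKO testes alone, 10 at those covered in Control testes alone and 4 at those covered in neither. Of the 877 genes with a shared start, 54.4% (51.0 to 57.7%) also had a Control peak at a gene end, and of the 155 genes with a start covered in Control testes alone 63.2% (55.1 to 70.8%). Of all 5285 genes with a Control gene-body peak, including those without listed starts, 73.1% (71.9 to 74.3%) had a Control peak at a gene end.

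CpG count ordered the internal starts in both genotypes. The 440 starts under a peak that reached a gene end, with a median CpG count of 22, were left out here. With 0 to 4 CpG dinucleotides, 2.75% of starts lay under a Znhit1-CKO gene-body peak and 4.13% under a Control one. With 10 to 14 the shares were 56.2% for Znhit1-CKO and 70.5% for Control, and with 30 or more 82.7% and 95%. The share of Control peaks over a start that a Znhit1-CKO peak overlapped was 56.2% (41.2 to 70.5%, n = 48) in the lowest group, 84.8% (79.6 to 89.1%) with 10 to 14, and 93.5% (89.7 to 96.3%) with 30 or more. The windows of the starts and the peak widths moved together: the Control peak was 920 bp wide in the median in the lowest group and 1479 bp in the highest. Within Control widths of 1000 to under 1500 bp, 94.8% of starts with 15 or more CpG dinucleotides (91.6 to 97.0%) and 86.4% of those with fewer (80.4 to 91.1%) were overlapped. Below 1000 bp the shares were 68.7% (60.0 to 76.5%) and 57.7% (50.9 to 64.2%), whose intervals overlapped.

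**Figure D3:**
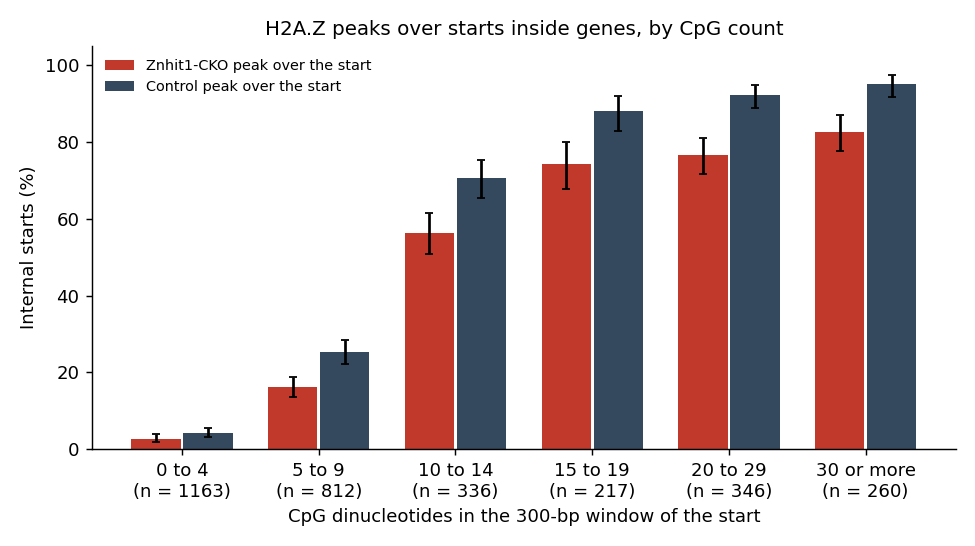
Percent of internal starts under a Znhit1-CKO gene-body peak and under a Control gene-body peak, by the number of CpG dinucleotides in the 300-bp window of the start; bars are exact 95% intervals and n is the number of starts. Starts under a peak that reached a gene end are left out. The shares run from 2.75% and 4.13% in the lowest group to 82.7% and 95% in the highest.

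Short motifs were counted in the same windows on both strands. The GC box (GGGCGG) was present in 63.9% of windows of shared starts, 41.8% of those covered in Control testes alone, 15% of those covered in neither and 46.2% of the windows of all 21263 listed starts of coding genes. It contains a CpG, so it follows CpG content by construction. The MYB motif (CAACTG) was in 10.2%, 16.4%, 17.6% and 12.5% of the same sets of windows. The TATA box letters (TATAAA) were in 4.95%, 6.21%, 16.8% and 12.6%, and the CCAAT box letters (CCAAT) in 32.0%, 31.6%, 37.4% and 38.2%. These are descriptions of letters in these windows.

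Gene lists placed internal starts of both kinds in germ-cell genes. Among 4 lists of germ-cell genes, internal starts under Control peaks without a Znhit1-CKO peak were found in Dmrtb1, a transcription factor of the mitosis-to-meiosis switch, Spata22, a partner of MEIOB in meiotic recombination, Fkbp6, a factor of the piRNA pathway, and Spag6, a protein of the axoneme. The Control peaks over them were 1305 bp wide at Dmrtb1, 1313 bp at Spata22, 812 bp at Fkbp6 and 1037 bp at Spag6, and the most CpG-rich window of each held 28, 25, 32 and 26 CpG dinucleotides in that order. Starts under peaks of both genotypes were found in Rec114, Dnah1, Rfx3, Tdrd7 and Dnmt3a. At Rarg, a retinoic acid receptor, the Control peak of 1076 bp was overlapped in Znhit1-CKO testes, but no Znhit1-CKO gene-body peak covered the start. Rfx3, a transcription factor of ciliogenesis, had a peak of 2351 bp in Znhit1-CKO testes and 2900 bp in Control testes, and Tdrd7, a Tudor protein of the piRNA pathway, one of 1150 bp and 1727 bp. The most CpG-rich windows of these 2 genes held 31 and 32 CpG dinucleotides, so CpG-rich windows occurred on both sides. Of 10 genes known for a promoter inside the gene, 7 had a gene-body peak anywhere in the gene in Znhit1-CKO testes and 9 in Control testes. Of all coding genes over 2 kb, 20.7% and 27.4% had one. The median length of the 10 genes was 97346.5 bp, and of genes of 50 to 200 kb 37.7% and 45.8% had one. Whether length accounts for the counts was not tested. Internal starts of 3 of the 10 genes (Dnmt1, Dnmt3a and Runx1) lay under peaks of both genotypes. Dnmt3a also had an internal start under no peak, as did Ace and Trp73.

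Most genes of the developmental and synaptic lists had a gene-body peak in both genotypes. Of 51 developmental transcription factor genes, 35 (68.6%) had a gene-body peak in Znhit1-CKO testes and 41 (80.4%) in Control testes, against 20.7% of all 19304 coding genes over 2 kb in Znhit1-CKO testes and 27.4% in Control testes. Of 57 synaptic adhesion and receptor genes, with a median length of 852341 bp, 45 (78.9%) and 55 (96.5%) had one. The developmental list had a median gene length of 114061 bp. Of genes of 50 to 200 kb, 37.7% had a gene-body peak in Znhit1-CKO testes and 45.8% in Control testes. Of genes over 200 kb, 67.3% and 79.4% had one. Whether gene length accounts for the shares of the lists was not tested. Control gene-body peaks in the developmental genes were overlapped by a Znhit1-CKO peak in 34.1% of cases (27.7 to 41.0%). In the synaptic genes the share was 27.3% (22.8 to 32.1%), against 38.1% over all host genes. By host length the overlapped share was 39.4% in genes of 50 to 200 kb and 32.5% in genes over 200 kb. Whether gene length accounts for the overlapped shares of the lists was not tested either. Foxp1, a forkhead transcription factor, had 11 peaks in Znhit1-CKO testes and 13 in Control testes, of which 8 were overlapped. Zfhx3, a zinc-finger homeobox factor, had 4 in Znhit1-CKO testes and 18 in Control testes, of which 2 were overlapped.

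Of the germ-cell lists, the meiotic one stood below the shares of all coding genes given above and the pachytene and spermatogonial ones stood above them. These lists are small, no intervals were computed for these shares, and the differences from all genes were not tested. Their median gene lengths were 36973.5, 33033 and 25154.5 bp in that order, against 21337 bp for all coding genes over 2 kb. Of 42 genes of the meiotic axis, synapsis and recombination, 5 (11.9%) had a gene-body peak in Znhit1-CKO testes and 5 (11.9%) in Control testes, with 2 genes in common. Of 45 pachytene and spermatid genes, 12 (26.7%) had one in Znhit1-CKO testes and 16 (35.6%) in Control testes, and of 28 spermatogonial genes 9 (32.1%) and 10 (35.7%). Of 24 piRNA pathway genes, 6 (25%) had one in each genotype, 4 of them in both. A gene-body peak in Znhit1-CKO testes alone was called at Stag3, Mei1 and Dmc1 of the meiotic list, Cfap61 and Hook1 of the pachytene and spermatid list, Tdrd1 and Tdrd12 of the piRNA list and Etv5 and Dnmt3b of the spermatogonial list. Each of these genes had 1 such peak, the widest 592 bp at Stag3, a meiotic cohesin subunit, and the narrowest 188 bp at Cfap61. Among all coding genes over 2 kb, 603 of the 3989 with a Znhit1-CKO gene-body peak (15.1%) had no Control gene-body peak. Whether the germ-cell lists differed from this share was not tested. Dmrtb1 had no gene-body peak in Znhit1-CKO testes and 3 in Control testes, all 3 with a differential region. Tdrd6, a Tudor protein of the chromatoid body, had none in Znhit1-CKO testes and 1 of 1582 bp in Control testes. Among 47 histone and DNA methylation enzymes, 12 (25.5%) had one in Znhit1-CKO testes and 15 (31.9%) in Control testes. Kdm6b, an H3K27 demethylase, had none in Znhit1-CKO testes and 5 in Control testes, and Dnmt3a, a de novo DNA methyltransferase, had 2 and 6. Genes of somatic cell types were read in the same mixed testis cells. Of 23 Sertoli cell genes, 7 (30.4%) had a gene-body peak in Znhit1-CKO testes and 11 (47.8%) in Control testes. Of 22 genes of Leydig, peritubular, endothelial and immune cells, 9 (40.9%) and 12 (54.5%) had one. Whether the makeup of the testis cells differed was not tested, because the files hold no expression values. Of the 24 genes of the H2A.Z exchange complexes, Epc1 alone had a gene-body peak, 1208 bp wide in Znhit1-CKO testes and 1575 bp in Control testes. Znhit1, H2az1 and H2az2 had none in either genotype and a peak at a gene end in both, which does not check the deletion.

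**Figure D4:**
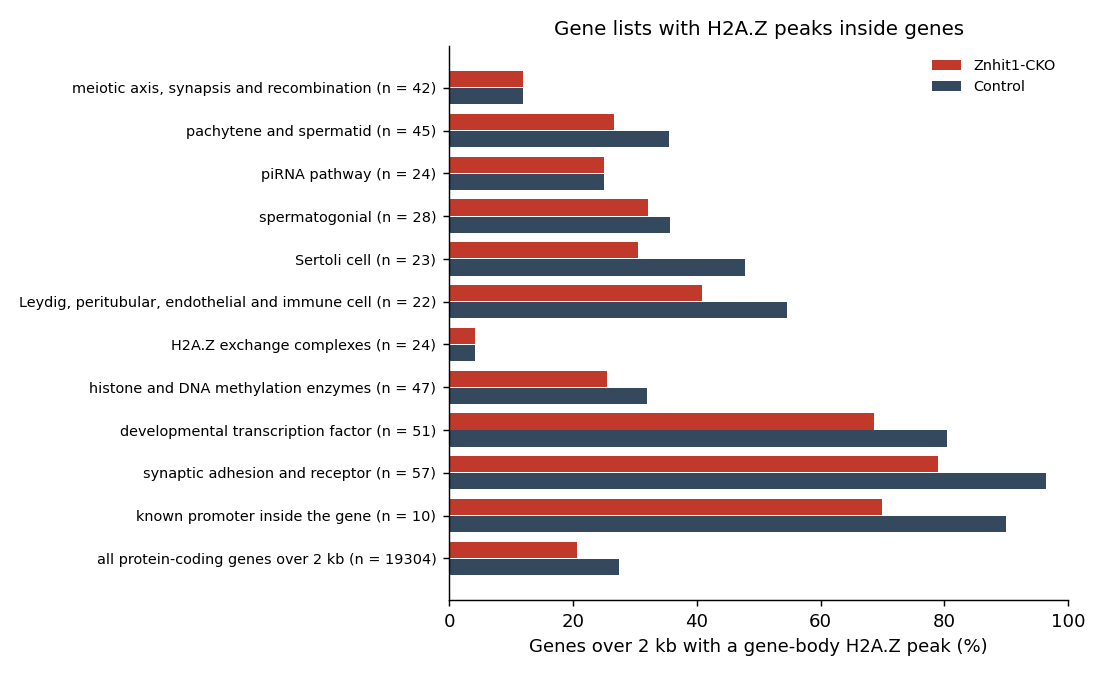
Percent of genes over 2 kb with a gene-body H2A.Z peak in Znhit1-CKO and Control testes for 11 gene lists and for all protein-coding genes; n is the number of genes. The developmental and synaptic lists stand at 68.6% and 78.9% in Znhit1-CKO testes and at 80.4% and 96.5% in Control testes, against 20.7% and 27.4% of all genes.

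Of 5285 genes with a Control gene-body peak, 3386 (64.1%, 62.8 to 65.4%) also held a gene-body peak in Znhit1-CKO testes. Among hosts with a gene-end peak in both genotypes, 45.6% had no Control gene-body peak that was overlapped (43.8 to 47.3%). The share was 46.4% (42.5 to 50.4%) among hosts whose gene-end peak was in Control testes alone, and 35% (32.6 to 37.6%) among hosts with no Control gene-end peak, below both other groups with no overlap of the intervals. The hosts with the most Control gene-body peaks were long genes. Tenm3, a teneurin, held 12 peaks in Znhit1-CKO testes and 34 in Control testes, Robo1, a receptor for Slit proteins, 13 and 29, and Pde4d, a cAMP phosphodiesterase, 12 and 27. Tshz2, a zinc-finger factor, held 5 and 25, Ctnna3, an alpha-catenin, 6 and 24, and Akap6, an anchor for protein kinase A, 17 and 21. Tenm2, another teneurin, held 8 in Znhit1-CKO testes and, like Akap6, 21 in Control testes.

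Along the host genes, Control peaks over no listed start were overlapped less often and had a differential region more often in the last segment than in the first. When each host was cut into 10 equal segments from its 5′ end, 33.8% of such peaks (30.4 to 37.2%) were overlapped by a Znhit1-CKO peak in segment 1 and 27.2% (24.2 to 30.3%) in segment 10. A differential region lay on 36.7% (33.3 to 40.2%) in segment 1 and on 52.2% (48.7 to 55.6%) in segment 10. The median Control width was 547 bp in segment 1 and 593 bp in segment 10. By distance, the lowest share with a differential region was 27.8% (22.2 to 34.0%), at 1 to 2 kb from the host start.

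**Figure D5:**
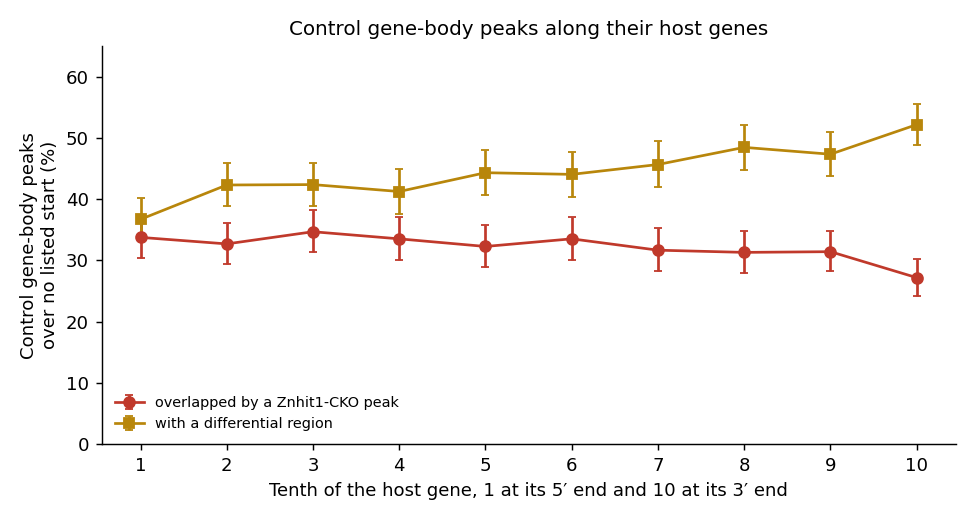
Percent of Control gene-body peaks over no listed start that were overlapped by a Znhit1-CKO peak, and percent with a differential region, in 10 equal segments of the host gene from its 5′ end to its 3′ end; bars are exact 95% intervals. The differential share is 36.7% in segment 1 and 52.2% in segment 10.

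The X chromosome carried few gene-body peaks. Its gene interiors held 1.69 peaks per Mb in Znhit1-CKO testes and 2.52 in Control testes, against 7.23 and 12.0 on autosomes. Of the 109 Control peaks on the X, 52.3% (42.5 to 62.0%) were overlapped and 29.4% (21.0 to 38.8%) had a differential region, against 38.1% (37.2 to 39.0%) and 45.9% (45.0 to 46.9%) on autosomes. The intervals did not overlap. Across the autosomes the overlapped share ran from 32.4% on chromosome 8 to 45.3% on chromosome 4. Peak width was not held fixed in these comparisons, and the densities were not adjusted for chromosome copies per cell. Peaks at gene ends and outside genes were not compared between the X and the autosomes, so the low density is not shown to be particular to gene bodies.

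Where a Control gene-body peak and a Znhit1-CKO gene-body peak overlapped each other and no other peak, the Znhit1-CKO peak was usually the narrower. In 4026 such pairs the median width was 640 bp in Znhit1-CKO testes and 880 bp in Control testes, the median log2 ratio was -0.29, and 73.9% of Znhit1-CKO peaks were narrower (72.6 to 75.3%). The median log2 ratio was -0.24 in 838 pairs over an internal start and -0.32 in 2347 pairs over none. It was -0.50 where the Control peak had a differential region and -0.18 where it had none. Pairs whose Control peak was under 400 bp had a ratio of 0.36, so the narrowest Control peaks had wider partners. Choosing pairs by the Control width sets part of this direction by construction.

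The widest Control peaks with and without a Znhit1-CKO peak lay in genes of varied function. Hivep2, a zinc-finger transcription factor, had a peak at chr10:13964292-13968411 of 4120 bp in Znhit1-CKO testes and at chr10:13964175-13968375 of 4201 bp in Control testes. At Bcl6, a repressor of transcription in germinal centre B cells, 3 Znhit1-CKO peaks of 1729, 837 and 807 bp lay on the single Control peak of 4443 bp (chr16:23980858-23985300). At Ptch1, the Hedgehog receptor, 3 Znhit1-CKO peaks of 2248, 578 and 436 bp lay on the single Control peak of 3926 bp (chr13:63563147-63567072). Nr4a2, an orphan nuclear receptor, had 3279 bp in Znhit1-CKO testes and 3406 bp in Control testes, and Rreb1, a zinc-finger factor, 2783 and 3295 bp. Tgif1, a homeobox repressor, had Znhit1-CKO peaks of 1043 and 1023 bp on a Control peak of 3431 bp. Sfmbt2, a Polycomb-group protein, had 2268 and 471 bp in Znhit1-CKO testes on 3387 bp in Control testes, and Pcdh17, a protocadherin, 815 and 323 bp on 3344 bp. When an overlap of 50% of both peaks was required, the Control peaks at Bcl6, Tgif1 and Pcdh17 no longer counted as overlapped.

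No Znhit1-CKO peak met the Control peak of 3041 bp at Adam33, a metalloprotease gene (chr2:131053637-131056677), or that of 2867 bp at Filip1. The same held for 2691 bp at Gnas, the imprinted locus of the stimulatory G protein, 2246 bp at Mmp9, a matrix protease, 2226 bp at Nrip1, a corepressor of nuclear receptors, 2226 bp at S100a3, 2128 bp at Espn, an actin-bundling protein, and 2104 bp at Tes. Of these 8 peaks, 6 had a differential region, and those of Filip1 and Mmp9 had none. In the other direction, the widest Znhit1-CKO peaks without a Control peak were narrower, from 1597 bp at Col28a1 to 1081 bp at Ptprr. They included Tdrd5, a Tudor protein needed for piRNA-based silencing, at 1507 bp, Bckdhb at 1246 bp, Parp11 at 1178 bp and Myrfl at 1125 bp. Only the peak at Ptprr had a differential region. Among paired peaks with a Control width of at least 1000 bp, the smallest ratio was at Sorbs2, with 193 bp in Znhit1-CKO testes and 2217 bp in Control testes (log2 ratio -3.52), and the largest at Pdgfrl, with 1569 and 1040 bp (0.59). Crhr1 and Myo7a followed at -3.13 and -3.09, and Cercam and Zfp59 at 0.56 and 0.49.

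MicroRNA genes lay in some of these peaks. Znhit1-CKO gene-body peaks held 13 microRNA genes and Control gene-body peaks 21, of which 15 were in a peak that a Znhit1-CKO peak overlapped, where 38.2% of all Control gene-body peaks were. These counts were not matched by peak width, with which the overlapped share rose. They are counts of genes, and Gm23363 and Mir199b lay in the same Control peak of 685 bp. The widest Control peaks with a microRNA gene held Mir1904 in Pde4d (2502 bp), Mir1895 in Cxxc4 (2232 bp) and Mir7240 in Mast3 (1849 bp). Znhit1-CKO peaks overlapped the Control peaks of Mir1904 and Mir7240 without reaching either microRNA gene. Mir1895 lay in a Znhit1-CKO peak of 1799 bp. Mir7228 in Syna lay in a peak of 905 bp in Znhit1-CKO testes and 1303 bp in Control testes. Mir6991 and Mir148a lay in predicted genes, Mir6991 in a peak of 1377 bp in Znhit1-CKO testes and 1842 bp in Control testes. Mir148a lay in a Control peak of 1729 bp that 2 Znhit1-CKO peaks overlapped. The wider of them was 1333 bp, and the one that reached Mir148a was 221 bp. Chosen after their values were seen, Mir34b, a microRNA abundant in meiotic germ cells, lay in a peak of 728 bp in Znhit1-CKO testes and 1019 bp in Control testes, while Mir199b in Dnm1 (685 bp), Mir218-1 in Slit2 (264 bp) and Mir490 in Chrm2 (839 bp) lay in Control peaks that no Znhit1-CKO peak overlapped. Mature sequences, from RefSeq (GRCm38.p6), are printed with the seed (bases 2 to 8) in capitals.
mmu-miR-34b-5p: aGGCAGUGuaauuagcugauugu
mmu-miR-148a-3p: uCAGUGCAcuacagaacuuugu
mmu-miR-199b-3p: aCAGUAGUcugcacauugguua
mmu-miR-218-5p: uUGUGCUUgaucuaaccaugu
mmu-miR-490-3p: cAACCUGGaggacuccaugcug
No 2 of the 30 mature sequences from the 17 matched microRNA genes shared a seed, so differing seeds do not separate overlapped from other peaks.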

How the data were processed

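H2A.Z ChIP-seq of P14 testes used 2 libraries per group in 4 groups, called independent biological replicates in the labels' protocols. The submitters' processing notes name cutadapt 2.5, BWA 0.7.17, SAMtools 1.9, Picard 2.20.7, MACS2 2.2.4 and mm10. The authors deposited 3 lists of regions (chromosome, start, end), 1 peak list per genotype and 1 of differential regions whose name credits edgeR. The sources used here give no peak score, no threshold, no direction and no word on pooling, and depth per library is unknown. Peaks were matched by an overlap of at least 1 bp. Gene positions came from RefSeq GRCm38.p6 (49997 genes, 21900 coding), and listed starts covered 17492 coding genes and none on chromosome 18. bedtools 2.31.1 gave the same number of overlapping peaks for each of the 48752 Control peaks (0 differed). The software was numpy 2.4.6, scipy 1.17.1, pandas 2.3.3 and matplotlib 3.10.9 under Python 3.11.15. The members and lists were chosen with earlier results of these data known. Genes were named by rank of peak width, number of peaks or width ratio, predicted genes left out, with up to 3 per list by number of Control peaks. All 383 list symbols matched. Alternatives were a 50% reciprocal overlap, gaps of at most 500 bp between peaks, other distances from gene ends, the ends of every gene type and peaks of at least 500 bp.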

Additional observations from a re-analysis of the deposited data

How the results depend on the processing

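No paired analysis was possible because each genotype has 1 peak list and no replicate values, so no replicate could be left out either. Direction held under every alternative run: fewer and narrower gene-body peaks in Znhit1-CKO testes, and a higher overlap over internal starts than elsewhere. With a 50% reciprocal overlap, the overlapped share of Control gene-body peaks was 28.9%, 73.8% over internal starts and 23.3% over none, and 51.2% of Znhit1-CKO gene-body peaks had no Control peak. A gap of up to 500 bp gave 40.8% overlapped and 35.1% over no start, and 28.3% of Znhit1-CKO gene-body peaks had no Control peak. With 500 bp from gene ends, 28.5% of Znhit1-CKO peaks had no Control peak, and gene bodies held 24.3% of the Znhit1-CKO list and 25% of the Control list; with 2000 bp these were 33.3%, 18.7% and 20.0%. With peaks of at least 500 bp, 35.7% of Control gene-body peaks were overlapped (80.5% over starts, 26.7% over none), 20.1% of Znhit1-CKO peaks had no Control peak, 58.9% of Control peaks had a differential region, the gene-body shares were 17% and 20.8%, the median log2 width ratio was -0.24, and 54.2% of Control hosts held a Znhit1-CKO peak. Where the region had to cover at least 50% of the Control peak, 22.8% had one. Counting a start within 250 bp of a peak gave 82.6% overlapped. These other values were beyond the counting interval of the main ones, 24 of 53 in all, and the cause was not tested beyond the changed sets of peaks. The number of Znhit1-CKO gene-body peaks as a percent of the Control number has no such interval and is not among the 24. With peaks of at least 500 bp it was 48.1%, against 60.5% in the main setting. Of 22 named peaks, 3 (Bcl6, Tgif1 and Pcdh17) no longer counted as overlapped under the 50% rule. The unknown depth limits any statement about sites absent from a list.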
